A study of Mus musculus with 12 samples.

Results

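Oas1c, Oas1d, Oas1e and Oas1h are paralogs of the mouse 2′-5′-oligoadenylate synthetase gene Oas1 that are known for their expression in oocytes. They were taken by symbol as 4 of the 24259 genes in the expression table, and all 4 were present. OAS enzymes are interferon-inducible sensors of double-stranded RNA: once bound to it they join ATP into short oligoadenylates, second messengers of the antiviral response. In the mouse a single ancestral Oas1 gene has expanded into a cluster, in which OAS1A and OAS1G are active enzymes. OAS1D lacks synthetase activity, is found in growing oocytes and early embryos, and its loss lowers female fertility.

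RNA was sequenced from germinal vesicle (GV)-stage oocytes of wild-type (WT) mice and of mice homozygous for the knockout-first, reporter-tagged insertion allele Lsm14b tm1a(KOMP)Mbp (KO), which disrupts Lsm14b, the gene of an RNA-binding protein of oocytes. The mice, on a C57BL/6J background, were 3 weeks old, and oocytes were collected 46 h after 5 IU of PMSG, a gonadotropin that stimulates follicle growth. Lysates of about 1500 pooled oocytes, treated with cycloheximide to hold ribosomes on mRNA, were spun through sucrose gradients, and fractions 1 to 10 made the ribonucleoprotein (RNP) pool, with mRNA free of polysomes, while fractions 11 to 28 made the polysome pool. Each genotype and pool had 3 libraries, 12 in all, and no source used here says that they came from separate animals, so the p-values measure the spread between these libraries. Levels are given in FPKM, which is scaled to gene length, so genes can be compared within a library.

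Lsm14b was read first, as a check of the labels. In WT it stood at 11.3, 15.3 and 13.2 FPKM in the polysome pool and at 34.6, 29.3 and 27.4 FPKM in the RNP pool. In KO it was at most 0.893 FPKM, and the 2 genotypes did not overlap in either pool. All 10 oocyte markers (Gdf9, Zp3 and others) were in the table, with summed levels of 19225 to 21133 FPKM in WT polysomes, 21728 to 23814 FPKM in KO polysomes, 4582 to 4720 FPKM in the WT RNP pool and 5739 to 6232 FPKM in the KO RNP pool. Gdf9 carried most of these sums, and the markers moved both ways in KO: 3 rose and 1 fell in polysomes (median difference 0.53 over the 10), 4 rose and 1 fell in the RNP pool (0.36), and the gene that fell, Dazl, did so in both, by 1.79 and 1.58 on the log2 scale. Between 10566 and 12720 genes were above 0 in a library. KO polysome replicate 2 stood apart in that its 10 highest genes took 34.7% of the summed FPKM, against 11.6% to 14.7% in the other libraries. Most of that share was a single gene, Mir300, at 170809 of 698228 summed FPKM.

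All 8 Oas1 genes lie on chromosome 5 (GRCm38, the mm10 build of the files; GENCODE M21 annotation) between positions 120786226 and 120921652. Oas1e (ENSMUSG00000066867.8) lies at chr5:120786226-120795530 on the minus strand, and Oas1c (ENSMUSG00000001166.17) at chr5:120800194-120812514, also on the minus strand. Oas1h (ENSMUSG00000001168.16) lies at chr5:120861421-120873506 and Oas1d (ENSMUSG00000032623.9) at chr5:120914536-120921652, both on the plus strand. The 4 oocyte paralogs are therefore not neighbours as a block. Oas1b and Oas1f separate Oas1c from Oas1h, and Oas1g and Oas1a separate Oas1h from Oas1d.

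An OAS enzyme holds its metal ions with 3 aspartates, and the codons at these sites are shown here because they set the oocyte paralogs apart from the active enzymes. The sites were located in translated Oas1a and carried over by aligning each translated coding sequence of GENCODE M21 to it. Capitals mark the aligned codons of the first and second sites, which are codons 76 and 78 of Oas1a counted from its start codon. All windows lie in exon 2 except that of Oas1c, which lies in exon 3, and each is written 5′ to 3′ on the coding strand with GRCm38 coordinates.
Oas1a (chr5:120905822-120905857, minus strand): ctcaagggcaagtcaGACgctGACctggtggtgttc
Oas1g (chr5:120885999-120886034, minus strand): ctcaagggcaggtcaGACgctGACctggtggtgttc
Oas1c (chr5:120808186-120808221, minus strand): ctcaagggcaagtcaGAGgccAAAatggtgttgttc
Oas1d (chr5:120915689-120915724, plus strand): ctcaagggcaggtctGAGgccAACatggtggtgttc
Oas1e (chr5:120794331-120794366, minus strand): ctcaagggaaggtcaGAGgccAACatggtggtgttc
Oas1h (chr5:120862560-120862595, plus strand): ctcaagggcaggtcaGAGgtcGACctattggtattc

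Oas1a and Oas1g carried GAC, an aspartate codon, at the first and the second site. All 4 oocyte paralogs carried GAG, a glutamate codon, at the first. At the second site Oas1c carried AAA (lysine), Oas1d and Oas1e carried AAC (asparagine), and Oas1h kept GAC (aspartate). At the third site, codon 149 of Oas1a, Oas1h was the exception, and the aligned codon is again in capitals.
Oas1a (chr5:120905606-120905635, minus strand): gaggtggagtttGATgtgctgccagccttt
Oas1c (chr5:120807970-120807999, minus strand): gaggtggaatttGATgtgcagccagcctat
Oas1d (chr5:120915911-120915940, plus strand): gagttggaatttGATgtgcagccagcctat
Oas1e (chr5:120794115-120794144, minus strand): gaggtggaatttGATgtgcagccagcctat
Oas1h (chr5:120862782-120862811, plus strand): gaggtggaatttCATatgcagacagcctat

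Oas1c, Oas1d and Oas1e carried the aspartate codon GAT at the third site and Oas1h the histidine codon CAT. No oocyte paralog thus held all 3 aspartate codons, whereas Oas1a, Oas1g and Oas1b did. Oas1b is, however, annotated as a polymorphic pseudogene, and its coding sequence has 251 codons against 367 in Oas1a and in Oas1g. Loss of the aspartate set was not limited to the abundant paralogs, since Oas1f carried the same 3 codons as Oas1c, GAG, AAA and GAT. Activity of the proteins was not measured in these data.

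The coding sequences were most alike for Oas1d and Oas1e, with 90.8% of aligned bases identical. Oas1c was 86.2% identical to Oas1e and 85.2% to Oas1d, and Oas1h was 78.5% to 79.1% identical to the other 3. Because reads of near-identical genes can be assigned wrongly, the share of 150-base windows, the length of 1 read, that matched another Oas transcript with at most 2 mismatches was counted. It was 1.03% for Oas1c, 1.76% for Oas1d, 3.03% for Oas1e and 0% for Oas1h. An annotated antisense gene, Gm43069, shares 227 of the 2405 exon bases of Oas1c and none of those of Oas1e, within whose locus it also runs. Whether the counting used strand is not given in the sources used here, so reads of Oas1c and Gm43069 in the shared stretch cannot be told apart.

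The start of Oas1c faces that of Oas1b across 120 bases, an interval shown because the transcripts that leave its ends stood at very different levels in these oocytes. In the plus-strand sequence of chr5:120812515-120812634 (GRCm38), capitals mark the overlapping matches of the interferon-stimulated response element, searched as GAAA and GAAA with any 2 bases between them.
Interval between Oas1c and Oas1b: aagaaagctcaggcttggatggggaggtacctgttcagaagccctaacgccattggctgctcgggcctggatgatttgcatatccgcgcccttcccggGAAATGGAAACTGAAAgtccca

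Oas1c stood at 688 to 1828 FPKM in the 12 libraries and Oas1b at 5.28 to 22.6 FPKM. Within a library Oas1c was 36.9 to 297 times as high as Oas1b. RefSeq promoter windows of 300 bases (GRCm38.p6) were matched for 5 Oas1 genes and searched on both strands. The response element occurred 2 times each in the windows of Oas1c, Oas1a and Oas1g, where the matches can overlap, and 0 times in those of Oas1h and Oas1f, and 3.44% of 32851 promoter windows held it. The E-box letters CANNTG occurred 2 times each in the windows of Oas1h and Oas1f and 0 times in those of Oas1c, Oas1a and Oas1g. Of all windows 72.3% held them. Neither TAATTG, the letters of an element of the oocyte factor NOBOX (8.0% of windows), nor TATAAA (13.6%) occurred in any of the 5.

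The 4 oocyte paralogs were among the most abundant transcripts of these oocytes, at 517 to 2631 FPKM. In the polysome pool they ranked between 16 and 61 by FPKM among all genes, and in the RNP pool between 38 and 99. Together they summed to 6108 to 6413 FPKM in WT polysomes, 7762 to 7947 FPKM in KO polysomes, 2465 to 2652 FPKM in the WT RNP pool and 3305 to 3373 FPKM in the KO RNP pool. They made up 97.6% to 99.6% of the summed FPKM of the 8 Oas1 genes in every library. The genes of the active enzymes, Oas1a and Oas1g, reached at most 1.95 FPKM. Oas1b and Oas1f lay between, at 5.28 to 46.2 FPKM.

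**Figure D1:**
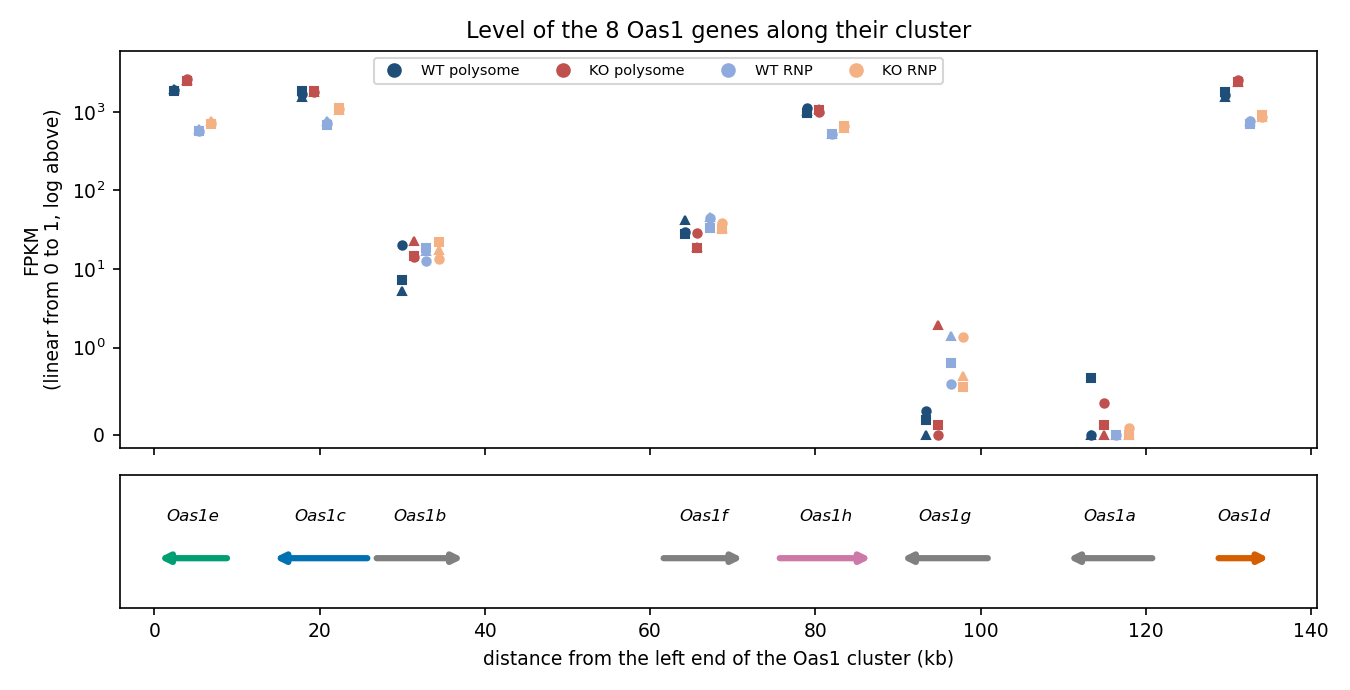
FPKM of the 8 Oas1 genes (y axis, linear from 0 to 1 and logarithmic above) at their place in the cluster (x axis, distance from its left end in kb), with points for the 12 libraries coloured by group, shaped by replicate and set slightly apart for view; the arrows below show each gene's extent and direction of transcription. Oas1e, Oas1c, Oas1h and Oas1d stand at 517 to 2631 FPKM, Oas1b and Oas1f at 5.28 to 46.2 FPKM, and Oas1g and Oas1a at 1.95 FPKM or less.

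The paralogs varied little among replicates, with coefficients of variation between 1.06% and 7.46% (n = 3 in each group). The KO polysome library with the high share in its top genes gave member values close to those of the other KO polysome libraries. The table gives no read counts. Depth was estimated from low FPKM values, multiplied by gene length, of genes with 1 transcript. The most common such value within a range set in advance was taken as a single fragment. This gave about 4940000 to 7840000 fragments per library, under an assumed fragment length of 200 bases. It puts an estimated 5117 to 30031 fragments behind each member value. The estimate is rough, since 10 to 44 genes per library gave the most common value. In bulk samples, fewer cells of a type and less RNA per cell cannot be told apart.

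Oas1c had 1696, 1821 and 1568 FPKM in WT polysomes and 1791, 1828 and 1803 FPKM in KO polysomes. Its RNP values were 722, 688 and 760 FPKM in WT and 1085, 1119 and 1055 FPKM in KO. The genotypes overlapped in the polysome pool and were apart in the RNP pool, where every KO library was higher than every WT library.

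Oas1d had 1626, 1789 and 1556 FPKM in WT polysomes and 2515, 2390 and 2423 FPKM in KO polysomes. In the RNP pool it had 761, 696 and 775 FPKM in WT and 850, 903 and 856 FPKM in KO. Every KO library was higher than every WT library in both pools, with the wider gap in polysomes.

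Oas1e, the paralog closest to Oas1d in sequence, had 1918, 1841 and 1965 FPKM in WT polysomes and 2631, 2477 and 2532 FPKM in KO polysomes. Among RNP libraries it had 577, 563 and 598 FPKM in WT and 713, 698 and 765 FPKM in KO. As with Oas1d, the genotypes were apart in both pools.

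Oas1h had 1107, 962 and 1019 FPKM in WT polysomes and 1010, 1066 and 1091 FPKM in KO polysomes. In the RNP pool it had 528, 517 and 519 FPKM in WT and 659, 653 and 629 FPKM in KO. It was the lowest of the 4 in all 12 libraries, and its genotypes overlapped in polysomes and were apart in the RNP pool. For the levels of single genes, the share of all genes with genotypes apart was not counted. The share that passed limma is given with each test below.

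**Figure D2:**
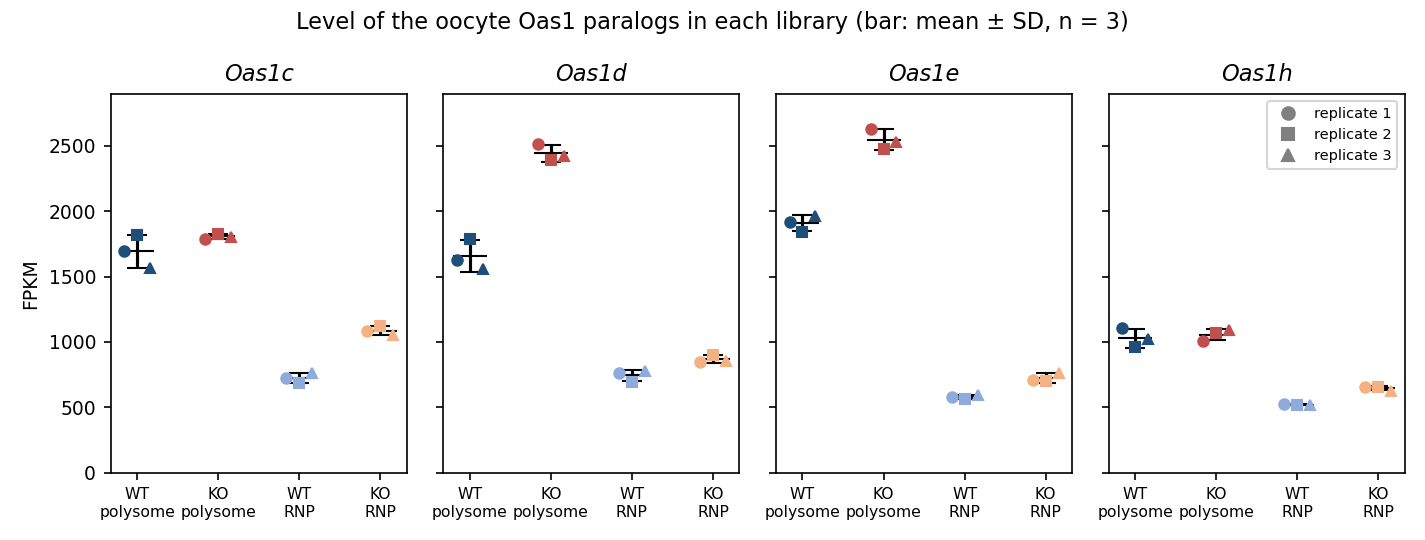
FPKM (y axis, from 0) of Oas1c, Oas1d, Oas1e and Oas1h in each library of the 4 groups (x axis), with points shaped by replicate and bars for the mean ± SD (n = 3). Every polysome library lies above every RNP library of the same genotype, KO polysomes stand above WT polysomes for Oas1d and Oas1e, and the KO RNP pool stands above the WT RNP pool for all 4.

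The order of the paralogs was the same in the 3 libraries of each group and differed between the 4 groups. In WT polysomes it ran Oas1e, Oas1c, Oas1d, Oas1h, with means of 1908 ± 62.7, 1695 ± 126, 1657 ± 120 and 1029 ± 73.0 FPKM (SD, n = 3). Oas1c and Oas1d there lay closer together than the spread of either. In KO polysomes Oas1d (2443 ± 64.7 FPKM) had passed Oas1c (1807 ± 19.1 FPKM), and Oas1e (2547 ± 78.2 FPKM) came before it in each library, by an amount near the spread.

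In the WT RNP pool Oas1d (744 ± 41.9 FPKM) and Oas1c (723 ± 36.3 FPKM) led and again differed by less than their spread, while Oas1e, first in polysomes, came after them at 580 ± 17.5 FPKM and before Oas1h at 522 ± 5.85 FPKM. In the KO RNP pool Oas1c (1086 ± 32.2 FPKM) stood above Oas1d (869 ± 29.2 FPKM) by more than the spread. Oas1e (725 ± 35.3 FPKM) and Oas1h (647 ± 15.8 FPKM) followed.

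As a share of the 4, Oas1e took 28.7% to 32.2% in WT polysomes and 31.9% to 33.1% in KO polysomes, but 22.3% to 22.9% and 20.7% to 23.2% in the RNP pools of WT and KO. The share of Oas1c was 25.7% to 28.4% in WT polysomes and 22.5% to 23.6% in KO polysomes, and it was 27.9% to 28.7% in the WT RNP pool and 31.9% to 33.2% in the KO RNP pool. The Oas1c share was thus lower in KO in the polysome pool and higher in KO in the RNP pool, with no overlap in either. Oas1d did the reverse, with 25.5% to 27.9% and 30.8% to 31.6% in WT and KO polysomes and 28.2% to 29.4% and 25.7% to 26.8% in the RNP pools. These shares are not independent, since a lower share of a paralog raises those of the others. Among genes averaging 500 FPKM or more, ratios of 2 genes were apart between genotypes for 66.9% of pairs in polysomes. In the RNP pool 76.0% were.

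**Figure D3:**
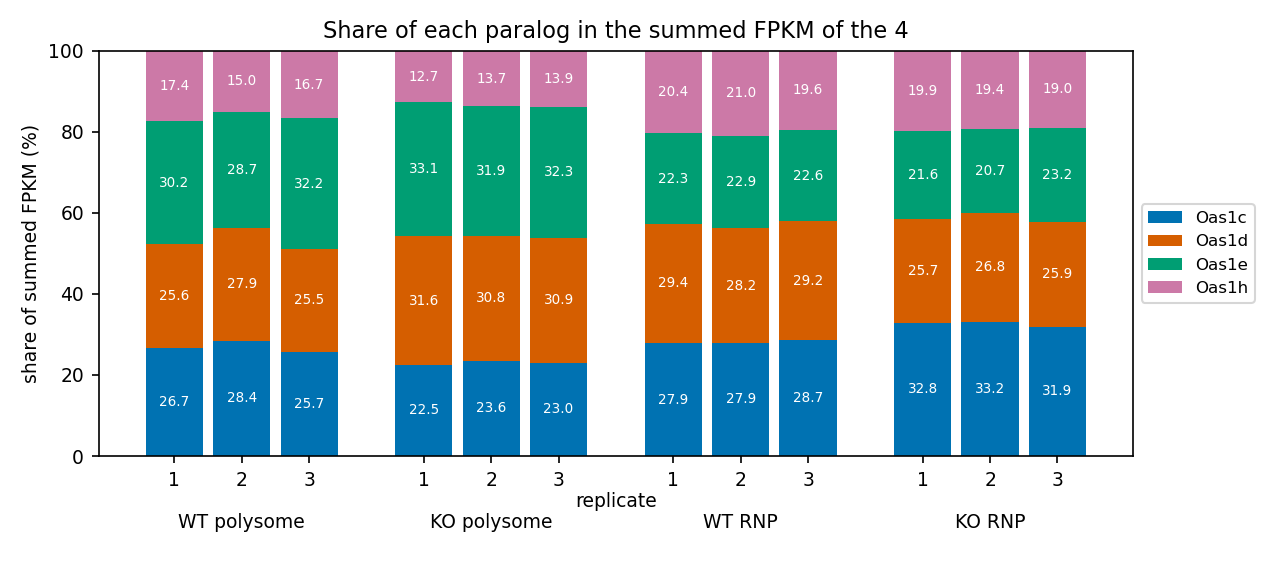
Share of Oas1c, Oas1d, Oas1e and Oas1h in the summed FPKM of the 4 (y axis, percent) in each of the 12 libraries (x axis, replicates 1 to 3 of each group), with the value written in each segment. Oas1c takes 22.5% to 23.6% in KO polysomes and 31.9% to 33.2% in the KO RNP pool, and Oas1h takes the smallest share in every library.

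The first comparison asked which mRNAs were more abundant in polysomes than in RNPs. Each library is scaled to its own total, so a difference between pools is relative to the other mRNAs of the pool and is not the share of an mRNA on polysomes. All 4 paralogs were higher in the polysome pool, in both genotypes, with no overlap between pools. The share of all genes without such overlap was not counted. In WT the fold of the means was 3.29 for Oas1e, 2.34 for Oas1c, 2.23 for Oas1d and 1.97 for Oas1h. In KO it was 3.51 for Oas1e, 2.81 for Oas1d, 1.66 for Oas1c and 1.63 for Oas1h.

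Tests were run with limma on log2(FPKM + 1) over all genes that reached 1 FPKM in at least 3 of the libraries compared, with Benjamini-Hochberg adjustment and a threshold of 0.05. In WT the difference of polysome minus RNP was 1.72 ± 0.08 for Oas1e, 1.23 ± 0.09 for Oas1c, 1.15 ± 0.09 for Oas1d and 0.98 ± 0.09 for Oas1h on the log2 scale (± SE). The adjusted limma p ran from 6.03e-06 for Oas1e to 0.000284 for Oas1h. All 4 passed, where 14.7% of the 9574 genes tested did. The median difference was 1.19 for the 4 and -0.09 over all genes tested.

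In KO the difference of polysome minus RNP was 1.81 ± 0.07 for Oas1e, 1.49 ± 0.06 for Oas1d, 0.73 ± 0.06 for Oas1c and 0.71 ± 0.07 for Oas1h (log2, ± SE). The adjusted limma p ran from 4.61e-07 for Oas1e to 0.000116 for Oas1h. All 4 passed, where 29.2% of the 9851 genes tested did, and the median was 1.11 for the 4 against -0.04 over all. The paralogs stood between percentiles 81.8 and 98.0 of the differences in KO and between 88.9 and 97.1 in WT. Other genes averaging 500 FPKM or more, 105 in WT and 118 in KO, had median differences of 0.03 and 0.32. In WT 78.1% of these genes lay below Oas1c, 75.2% below Oas1d, 84.8% below Oas1e and 72.4% below Oas1h. In KO 64.4% lay below Oas1c, 80.5% below Oas1d, 88.1% below Oas1e and 63.6% below Oas1h.

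**Figure D4:**
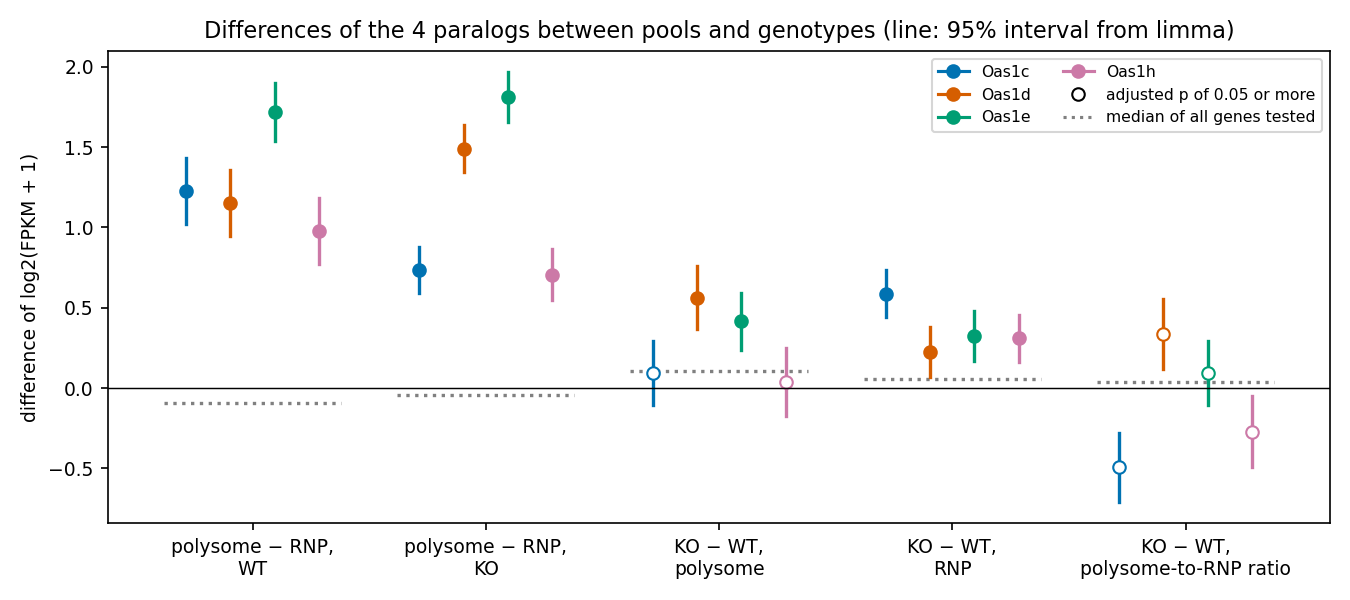
Difference of log2(FPKM + 1) (y axis) for Oas1c, Oas1d, Oas1e and Oas1h in the 5 comparisons (x axis), with points for the limma estimate, filled where the adjusted p was below 0.05, lines for the 95% interval and a dotted line for the median of all genes tested. The polysome pool exceeds the RNP pool by 0.71 to 1.81 for all 4, Oas1d and Oas1e rise in KO polysomes, all 4 rise in the KO RNP pool, and no ratio passes the test.

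The second comparison asked how loss of LSM14B moved the polysome pool. Oas1d rose by 0.56 ± 0.09 on the log2 scale in KO (limma adjusted p = 0.00691), a fold of the means of 1.47. Oas1e rose by 0.42 ± 0.08 (limma adjusted p = 0.0134), a fold of 1.33. Oas1c differed by 0.10 ± 0.09 (95% interval -0.10 to 0.29, limma adjusted p = 0.537) and Oas1h by 0.04 ± 0.09 (-0.17 to 0.25, limma adjusted p = 0.833). So 2 of 4 paralogs passed, where 10.4% of the 9536 genes tested did, and the median difference was 0.26 for the 4 and 0.10 over all genes.

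In the same comparison 124 other genes averaging 500 FPKM or more had a median difference of 0.27. Of these genes 75.8% lay below Oas1d, 66.1% below Oas1e, 37.1% below Oas1c and 36.3% below Oas1h. Markers of granulosa and cumulus cells, the somatic cells around the oocyte, summed to 27.2 to 75.5 FPKM in WT polysomes. In KO polysomes they summed to 78.9 to 103 FPKM. Of the 10 markers 6 were tested, and 3 (Fshr, Inha and Inhba) passed as higher in KO, where 10.4% of all genes tested passed. Cyp19a1 (mean 37.7 FPKM in WT and 24.2 FPKM in KO polysomes) and Kitl differed by -0.54 and -0.11 (log2) and did not pass. Nr5a2 differed by 1.13 and did not pass either. Foxl2, Has2 and Ptx3 were listed at 0 in all these polysome libraries. The part of these markers in the result was not tested. Without KO polysome replicate 2 or 3 Oas1e kept its size (0.44 and 0.42) and missed the threshold (limma adjusted p = 0.0517 and 0.0542). With quantile normalization the difference shrank to 0.27 for Oas1d, which passed, and to 0.09 for Oas1e, which did not, and neither passed with no intensity trend in the limma variance or with no filter on low genes.

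As for RNPs, all 4 paralogs rose in KO. Oas1c rose most, by 0.59 ± 0.07 on the log2 scale (limma adjusted p = 0.000479), a fold of the means of 1.50. Oas1e rose by 0.32 ± 0.07 (limma adjusted p = 0.0110) and Oas1h by 0.31 ± 0.07 (limma adjusted p = 0.0101), folds of 1.25 and 1.24. Oas1d rose least, by 0.23 ± 0.07 (limma adjusted p = 0.0468), a fold of 1.17.

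These were 4 of 4, where 20.7% of the 9931 genes tested passed, and the median difference was 0.32 for the 4 and 0.05 over all genes. Among 104 other genes of at least 500 FPKM the median difference was 0.20, with 77.9% of them below Oas1c and 51.9% below Oas1d. The granulosa and cumulus markers summed to 31.3 to 37.0 FPKM in WT and 42.7 to 65.3 FPKM in KO in the RNP pool, and their part was not tested. The call of Oas1d was lost under 11 of 16 other settings or left-out libraries, with an adjusted limma p of up to 0.370, and with no intensity trend none of the 4 passed. Oas1e also lost its call with no filter (limma adjusted p = 0.0846) and with quantile normalization (0.20, limma adjusted p = 0.0616), and Oas1h without KO RNP replicate 1 (limma adjusted p = 0.0507).

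The third comparison asked whether the polysome-to-RNP ratio of FPKM differed between genotypes. The paper's translational efficiency is another measure, which divides polysome-loaded by total transcripts. The ratio used here draws on the same 12 libraries as the comparisons above. The ratio of Oas1c was different in KO by -0.49 ± 0.10 on the log2 scale (95% interval -0.71 to -0.28, limma adjusted p = 0.0722). That of Oas1h differed by -0.27 ± 0.10 (-0.49 to -0.05, limma adjusted p = 0.336). The ratio of Oas1d differed by 0.34 ± 0.10 (0.12 to 0.56, limma adjusted p = 0.214) and that of Oas1e by 0.09 ± 0.09 (-0.10 to 0.29, limma adjusted p = 0.761).

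None of the 4 passed, where 0.237% of the 10949 genes tested did, 26 genes in all. On simulated data for genes of all levels, this test recovered 0% of 200 genes changed by 0.5 (log2), 3.5% at 1 and 42.5% at 2. A ratio that did not pass is therefore no sign of an unchanged ratio. At an unadjusted limma p below the same threshold 3 of the 4 would be counted, Oas1c at 0.000264, Oas1d at 0.00555 and Oas1h at 0.0203, and 1220 genes in all. The ratio of Oas1c passed with genes filtered at 5 FPKM, with libraries scaled to the same median, with quantile normalization and without WT polysome replicate 3, at an adjusted limma p of 0.0126 to 0.0491. Among 117 other genes of at least 500 FPKM the median difference of the ratio was -0.17, with 14.5% below Oas1c and 88.0% below Oas1d.

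The ratio of a pair of paralogs within a library is not moved by a factor applied to the whole library, though quantile normalization can move it, and all 6 pairs were compared between genotypes in both pools, 12 comparisons in all. With 3 libraries against 3, an exact two-sided permutation test cannot go below p = 0.1, so none could pass 0.05. The genotypes were apart in 7 of the 12, 4 in polysomes and 3 in the RNP pool, each at the smallest exact p of 0.1 (0.171 adjusted over the 12). Over all pairs of genes tested 29.0% were apart in polysomes and 36.7% in the RNP pool, and over all pairs of other tested genes averaging 500 FPKM or more, 123 and 104 genes, 66.9% and 76.0% were. The members' 4 of 6 and 3 of 6 were not above the shares among equally abundant genes.

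The log2 ratio of Oas1c to Oas1d was 0.03 ± 0.03 in WT polysomes and -0.43 ± 0.05 in KO polysomes (SD, n = 3), a difference of -0.47. In the RNP pool it was -0.04 ± 0.03 in WT and 0.32 ± 0.03 in KO, a difference of 0.36. In WT, then, Oas1c and Oas1d were near equal in both pools, and in KO Oas1d led in polysomes and Oas1c in RNPs. The ratio of Oas1c to Oas1e moved the same way, by -0.32 in polysomes and by 0.26 in the RNP pool.

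Against Oas1h, Oas1d was higher by 0.52 and Oas1e by 0.38 in KO than in WT polysomes, and Oas1c was higher by 0.28 in the KO than in the WT RNP pool. With quantile normalization the differences against Oas1h in polysomes fell to 0.32 for Oas1d and 0.14 for Oas1e, while that of Oas1c to Oas1d was -0.44 there and 0.37 in the RNP pool. The ratio of Oas1d to Oas1e, the most similar coding sequences, overlapped between genotypes in both pools, with differences of 0.15 (exact permutation p = 0.4) in polysomes and -0.10 (exact permutation p = 0.2) in the RNP pool. The ratio of Oas1c to Oas1h overlapped in polysomes, with a difference of 0.06 (exact permutation p = 0.6).

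**Figure D5:**
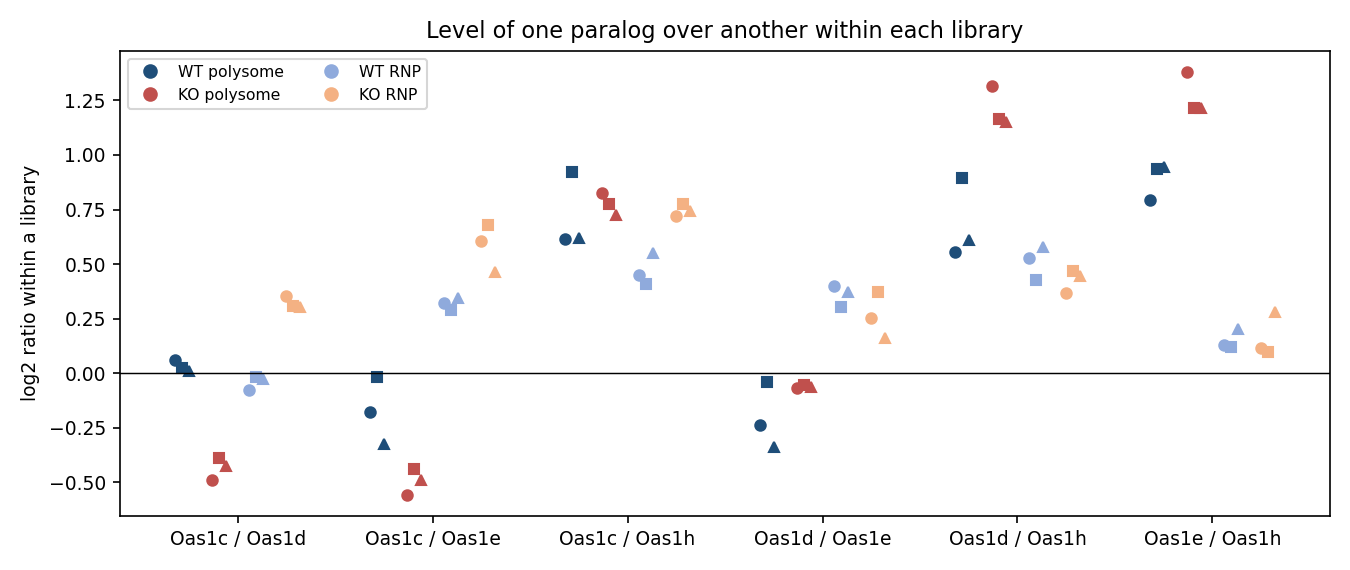
Log2 ratio of the levels of 2 paralogs within each library (y axis) for the 6 pairs (x axis), with a point for each library, coloured by group and shaped by replicate, and a line at equal levels. The ratio of Oas1c to Oas1d lies near 0 in both WT pools, near -0.43 in KO polysomes and near 0.32 in the KO RNP pool.

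Profiles over the 12 libraries were compared after centring each gene, by the root mean square difference of log2(FPKM + 1), among 5985 genes averaging 5 FPKM or more. Oas1c and Oas1h were the closest pair of paralogs, at 0.146, with Oas1h the 7th nearest gene to Oas1c and Oas1c the 10th nearest to Oas1h. Oas1d and Oas1e differed by 0.243 and Oas1e and Oas1h by 0.486. The genes nearest to Oas1c were Psmf1 (0.103), Birc5 (0.130), which encodes survivin of the chromosomal passenger complex, and Dazap2 (0.136). Those nearest to Oas1d were Alg13 (0.131), Cpeb1 (0.134), which encodes an RNA-binding protein that controls translation of stored oocyte mRNAs, and Zfyve21 (0.136). For Oas1e they were Klhl8 (0.137), Ahsa1 (0.139) and AU015836 (0.159), and for Oas1h Ninj2 (0.106), Abhd4 (0.115) and Usp15 (0.120). The points share libraries and depth, and this likeness is a description.

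Of the 8 remaining Oas genes, Oas1b, Oas1f and Oasl1 were tested between genotypes in each pool, and the rest were below the filter. Oas2 reached at most 1.44 FPKM and Oas3 1.67 FPKM, Oasl1 was at 0 to 13.3 FPKM, and Oasl2 was listed at 0 except for 4.11 FPKM in WT polysome replicate 3. None of the 3 passed the limma test, and 0 had an unadjusted p below 0.05 in either pool. Oas1f, whose first and second site codons are those of Oas1c, was lower in polysomes than in RNPs in KO, with a difference of -0.67 ± 0.21 (log2, limma adjusted p = 0.0360). In WT it differed by -0.32 ± 0.25 (limma adjusted p = 0.441).

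Interferon-induced genes were mostly low. Of 11 interferon-induced genes 8 were listed at 0 in every library, Isg15 and Rsad2 among them, and 10 were below 5 FPKM throughout. Bst2 and Mx1 passed the filter in at least 1 pool, and neither passed the limma test between genotypes, adjusted or unadjusted. Bst2, which tethers budding virus to the cell surface, was at 2.88 to 27.6 FPKM. A value of 0 in this table need not mean no RNA: Abce1, which cells need to recycle ribosomes, was at 0 to 3.11 FPKM in the 6 WT libraries. Whether RNA was missed at any value of 0 was not tested.

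Abce1 was at 1.63, 0.324 and 0 FPKM in the WT RNP pool and at 13.3, 13.5 and 10.5 FPKM in the KO RNP pool. It rose there by 3.14 ± 0.42 (log2, limma adjusted p = 0.00115), a size that rests on WT values near 0. In KO polysomes it was at 4.54, 15.96 and 6.09 FPKM (limma adjusted p = 0.0595). Pde12, an enzyme that degrades oligoadenylates, was at 0 to 20.2 FPKM and did not pass between genotypes (limma adjusted p = 0.755 in polysomes). Of 8 sensors of double-stranded RNA and their adaptor, 3 were tested in polysomes and 4 in the RNP pool. Mavs, the adaptor, was the 1 that passed in each, where 10.4% and 20.7% of all genes tested did. Mavs was at 14.6, 26.7 and 36.3 FPKM in WT polysomes and 83.0, 78.7 and 91.9 FPKM in KO polysomes. It rose by 1.76 ± 0.31 in polysomes (limma adjusted p = 0.0111) and by 1.19 ± 0.28 in the RNP pool (limma adjusted p = 0.0156). Of 9 genes of interferon signalling 5 were tested in the RNP pool. Jak1, the receptor-bound kinase, rose there by 1.06 ± 0.23 (limma adjusted p = 0.0118), and the others tested did not pass. This was 1 of 5, near the 20.7% of all genes tested that passed in that pool. In polysomes none of the 5 tested passed, and 3 of them (Jak1, Tyk2 and Stat2) had an unadjusted limma p below 0.05. Over all genes tested there, 2505 of 9536 did.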

How the data were processed

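Per the labels and the study's methods, paired-end reads from Smart-seq2-amplified RNA were aligned to mm10 with TopHat2 2.0.13, and the authors computed FPKM per gene with Cufflinks 2.2.1. The submitters' processing notes also name Cuffdiff and Cuffnorm. The annotation release and strand setting are not given in the sources used here. The deposited table holds FPKM for 12 libraries. Its 54 columns of the authors' own comparisons (fold changes, p-values, q-values) were not used.

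Members and gene lists were chosen with earlier results of these data known. Log2(FPKM + 1) was fitted with limma 3.58.1 (R 4.3.3, intensity trend) on the libraries compared, with genes of at least 1 FPKM in 3 or more libraries. The ratio was the genotype-by-pool term over 12 libraries. P-values were adjusted with Benjamini-Hochberg over all genes tested. Ratios within libraries were tested with SciPy 1.17.1. The rule for named genes took the 4 members, Lsm14b, the other Oas genes, Abce1 and Pde12, genes of the sensor and interferon lists that passed, and the 3 genes nearest to each member in profile; marker lists are given as sums and counts. A gene that this rule takes is not reported here. Sequences were aligned with Biopython 1.88. On simulated data, 71.5% (polysome) and 89% (RNP) of 200 genes changed by 2 (log2) between genotypes were recovered, among 9536 and 9931 genes, against 15.5% and 39% at a change of 1 and 0% and 1% at 0.5, nearer the members' changes, for genes of all levels. Alternatives covered pseudocount, filter, scaling, variance trend, a joint fit, a replicate block and each library left out.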

Additional observations from a re-analysis of the deposited data

How the results depend on the processing

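The difference between pools passed for all 4 paralogs in both genotypes under every alternative run, and the 7 within-library ratios that were apart were as many with a pseudocount of 0.1 or 5. For KO against WT in polysomes, 2 paralogs passed as reported, 0 with no filter, 0 with no intensity trend and 1 with quantile normalization, with 1 to 2 when a library was left out (1 without KO polysome replicate 2 or 3). In the RNP pool 4 passed as reported, 2 with no filter, 0 with no intensity trend and 2 with quantile normalization, with 2 to 4 when a library was left out (2 without KO RNP replicate 1). For the ratio 0 passed as reported and 1, Oas1c, with a filter at 5 FPKM, with libraries scaled to the same median FPKM and with quantile normalization, and 0 to 1 when a library was left out (1 without WT polysome replicate 3). The sign of values that had not passed turned in a few cases: in polysomes Oas1c became -0.17 and Oas1h -0.0525 with quantile normalization, Oas1h ranged from -0.00925 (without WT polysome replicate 2) to 0.0919 when a library was left out and became -0.0025 with libraries centred on abundant genes, an alternative chosen after seeing the data, and the ratio of Oas1e became -0.12 with quantile normalization. The no-filter setting adds genes at 0 to the variance trend and the adjustment. The cause of the other shifts was not tested.

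Over all genes, the calls in polysomes went from 989 to 81 with no filter, 508 with no intensity trend, 1843 in 1 fit over 12 libraries and 383 to 790 without a library. In the RNP pool they went from 2057 to 765 with no filter and 1255 to 1911 without a library, and for the ratio from 26 to 16 with no filter, 6 with no intensity trend and 0 to 46 without a library. Between pools they went from 1406 to 461 (no filter), 728 (no intensity trend) and 2302 (1 fit) in WT, and from 2881 to 1629 (no filter) in KO. Centring on abundant genes changed the split of higher to lower calls between pools from 763 and 643 to 553 and 1022 in WT, and from 1523 and 1358 to 1034 and 2046 in KO, and shifted the median of all genes to -0.30 and -0.29. The members stayed higher in polysomes there.

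Replicate numbers are shared between groups, and same-numbered libraries did not deviate together (correlations of -0.021 to 0.026 over 10949 genes). Such correlations cannot show whether the 2 pools of a number came from the same gradient. The main fits treated all libraries as unpaired, which leaves out any such pairing. With a replicate block 2 paralogs passed in polysomes, 3 in the RNP pool (Oas1d at an adjusted limma p of 0.0832), 0 for the ratio and 4 between pools in each genotype, and over all genes 672, 1799, 0, 1165 and 2720 passed. Members rested on an estimated 5117 fragments or more, and how depth limits their precision was not tested.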
